A study of Mus musculus with 6 samples.

Results

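The miRNAs miR-23, miR-27 and miR-24 are encoded side by side in a pair of clusters, the miR-23a cluster on chromosome 8 (Mir23a, Mir27a and Mir24-2) and the miR-23b cluster on chromosome 13 (Mir23b, Mir27b and Mir24-1). The rows described here were chosen by name. They are all rows of the mature arms of these hairpins and of miR-3074, whose hairpins lie on the opposite strand of the miR-24 hairpins. These are 16 of 109108 features and 16 of 2035 miRNA rows, 8 in each cluster, with 14 distinct names. The 6 small RNA libraries come from the hippocampus of male C57BL/6 mice, 3 months old and killed 3 weeks after tamoxifen. Every animal was Dicer1 flox/flox and received tamoxifen. The 3 Dicer1-ifKO libraries are from mice with CaMKIIa-creERT2, a recombinase that tamoxifen activates and that is driven by a promoter active in excitatory neurons of the forebrain. The 3 WT libraries are from mice without it. A library is a pool of RNA of 3 mice, so p-values describe the spread between pools, and the tissue also holds glia, vessel cells and neurons that do not drive the recombinase.

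Both clusters are transcribed as a primary RNA that Drosha cuts into hairpins, and Dicer then cuts each hairpin into a 5p and a 3p arm, of which one is usually kept in Argonaute. An miRNA finds its targets mainly by its seed, bases 2 to 8 from the 5′ end. The miR-23 and miR-27 families are known for roles in vessel growth, lipid metabolism and immune cells, miR-24 for roles in the cell cycle and cell death, and miR-23 has been described in astrocytes.

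The mature sequences show which rows can be told apart and which cannot. They are printed 5′ to 3′ from RefSeq (GRCm38.p6, the build the files use), with the seed in capitals. Of the 16 rows, 14 matched the RefSeq table by name and position, and miR-23b-3p and miR-3074-1-3p are named only.
miR-27b-3p (chr13:63300760-63300780, plus strand): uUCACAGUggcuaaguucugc
miR-27a-3p (chr8:84208727-84208747, plus strand): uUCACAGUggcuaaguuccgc
miR-23a-3p (chr8:84208563-84208583, plus strand): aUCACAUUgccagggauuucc
miR-24-3p (chr8:84208875-84208896 and chr13:63301251-63301272, plus strand): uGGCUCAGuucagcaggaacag
miR-24-2-5p (chr8:84208839-84208860, plus strand): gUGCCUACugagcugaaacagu
miR-24-1-5p (chr13:63301213-63301235, plus strand): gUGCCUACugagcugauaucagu
miR-27b-5p (chr13:63300718-63300739, plus strand): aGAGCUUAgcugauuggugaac
miR-27a-5p (chr8:84208685-84208706, plus strand): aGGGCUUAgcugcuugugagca
miR-3074-5p (chr8:84208873-84208894 and chr13:63301249-63301270, minus strand): gUUCCUGCugaacugagccagu

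The 3p arms of miR-27a and miR-27b have the same seed and the same first 18 bases. They differ at 1 base, C19U, counted from 1 at the 5′ end with miR-27a-3p as the reference. A read that ends before base 19 matches both rows, and how such reads were assigned is not given in the sources used here, so the split between miR-27a-3p and miR-27b-3p is uncertain. No other mature miRNA of the RefSeq table has the seed of miR-27, and 4 others have that of miR-24-3p (miR-5124b, miR-6369, miR-6410 and miR-6413), which held 0 or 1 counts in all libraries together. The 5p arms of the miR-27 pair match at 14 of 22 positions and have different seeds. The miR-24 5p arms have the same seed and the same first 16 bases.

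The miR-24 hairpins show why their 3p arm cannot be assigned to a cluster while the 5p arm can. The hairpins are printed with the mature arms in capitals.
Mir24-2 (chr8:84208815-84208921, plus strand): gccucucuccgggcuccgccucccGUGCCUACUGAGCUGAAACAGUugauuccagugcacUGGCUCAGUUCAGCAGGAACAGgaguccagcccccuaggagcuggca
Mir24-1 (chr13:63301208-63301275, plus strand): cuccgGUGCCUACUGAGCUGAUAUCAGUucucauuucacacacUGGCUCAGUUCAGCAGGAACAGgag
The mature miR-24-3p is identical in both. Its deposited counts lay close to an even split in every library, with 48.1% to 51.1% in the chromosome 8 row, so these rows are not separate measurements of the clusters. The rows of miR-3074-5p held exactly the counts of miR-24-3p at both places, and miR-3074-2-3p exactly those of miR-24-2-5p. The rows miR-3074-1-3p and miR-24-1-5p held 162 and 154 counts in all. Reads from the strands of these places therefore cannot be told apart, and the 4 rows of miR-3074 are not described as results of their own.

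The chromosome 8 cluster is the more compact, at 404 nt from the start of Mir23a to the end of Mir24-2, against 792 nt from Mir23b to Mir24-1. In GENCODE M21, Mir23a and Mir27a lie outside annotated genes other than miRNA genes, and Mir24-2 overlaps the noncoding RNA Gm26532 by 2 nt. The chromosome 13 hairpins lie within 2010111I01Rik, a protein-coding gene on the same strand (the aminopeptidase Aopep), and within an intron of Fancc on the other strand. Mir23b is intronic in all 9 transcripts of 2010111I01Rik that cover it. Mir27b overlaps an exon of 1 of 9 transcripts, and Mir24-1 exons of 4 of 8, all of the classes nonsense-mediated decay, retained intron or processed transcript. The span 2010111I01Rik-201 held 61526 to 87743 counts per library, of which only 8 to 19 lay outside the miRNA rows of the cluster, so the files hold nearly no other reads of the host transcript. No deposited span covered the whole chromosome 8 cluster.

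**Figure D1:**
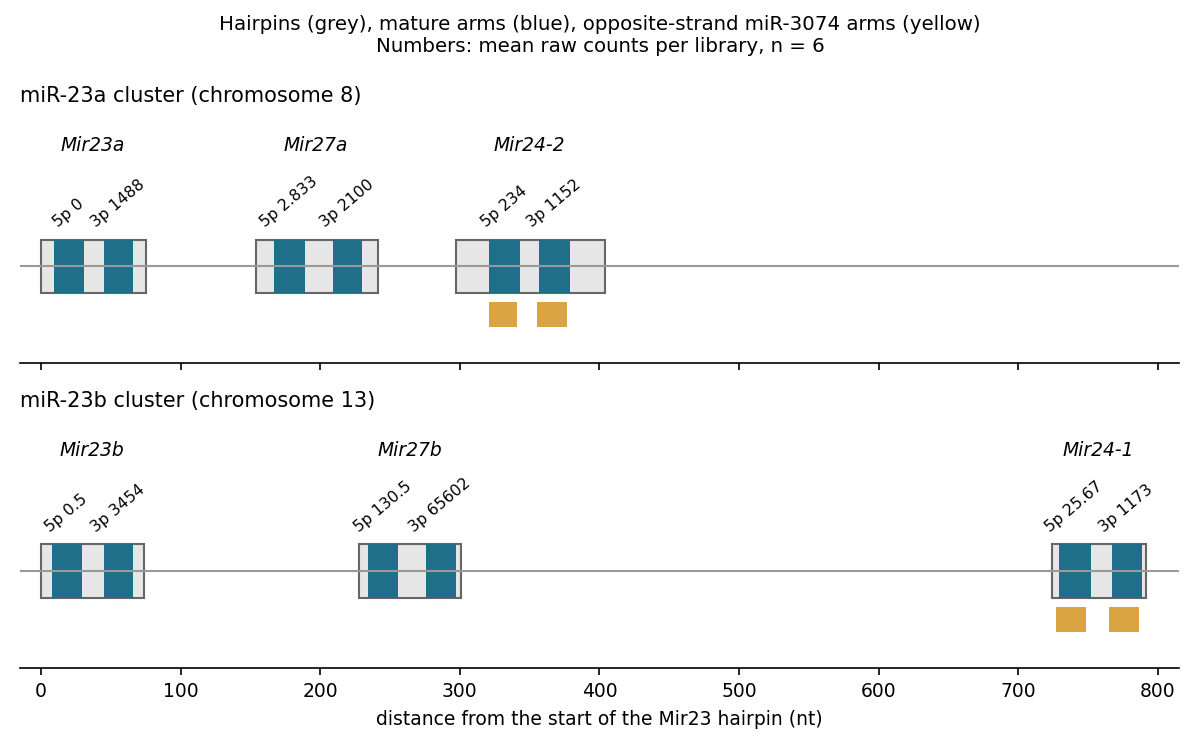
Map of both clusters, with distance in nt from the start of the Mir23 hairpin on the horizontal axis, hairpins in grey, plus-strand mature arms in blue and miR-3074 arms in yellow. The numbers are mean raw counts per library (n = 6), and miR-27b-3p, at 65602, exceeds every other arm drawn.

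As a check of the series, the Dicer1 span held 33 to 47 counts per WT library and 32 to 37 per Dicer1-ifKO library. These counts cover the whole gene and do not resolve the floxed part, so they check no label. Summed counts over all features ran from 55101387 to 77428956 per library, where a read counts both in an miRNA row and in a span around it, and the miRNA rows held 2318205 to 3179363. Levels are given as CPM, counts relative to the library's summed counts after rows of 1 gene with identical counts were reduced to 1 (39392000 to 54629000 per library) and after TMM scaling. Of the 16 rows, 13 had enough counts to be tested. Of these, 9 were rows of miR-23, miR-27 and miR-24, and 4 were rows of miR-3074. Untested were miR-23a-5p, miR-27a-5p and miR-23b-5p.

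miR-27b-3p was by far the most abundant member, ninth by mean level among the 546 tested miRNA rows. The WT libraries held 68384, 65158 and 82148 counts of it, in replicate order, and the Dicer1-ifKO libraries 59928, 60532 and 57461. This row alone made up 86.6% to 88.0% of the plus-strand counts of both clusters. The mean level of WT was 1508 ± 225 CPM and that of Dicer1-ifKO 1267 ± 158 CPM (SD, 3 pools per genotype). Dicer1-ifKO replicate 1, at 1443 CPM, lay above WT replicates 1 and 2, at 1395 and 1361 CPM, so the groups overlapped. Its log2 change was -0.25 ± 0.15 (SE), which is not past the threshold (edgeR quasi-likelihood test, adjusted p = 0.80).

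The neighbour of Mir27b in the cluster gives miR-23b-3p, whose groups did not overlap under scaling over all features, although it did not pass the test. When TMM factors came from miRNA rows only, its log2 change was -0.15, smaller in size than that of miR-24-2-5p at 0.44, and neither passed. miR-23b-3p held 4202, 3694 and 3922 counts in the WT libraries and 2820, 3108 and 2977 in the Dicer1-ifKO libraries, in replicate order. The mean level of WT was 82.4 ± 4.61 CPM and that of Dicer1-ifKO 63.2 ± 4.78 CPM (SD, 3 pools per genotype). All Dicer1-ifKO libraries, at 58.3 to 67.9 CPM, lay below all WT libraries, at 77.1 to 85.7 CPM. The log2 change was -0.38 ± 0.14 (SE), with an adjusted p of 0.40 by edgeR. Of the tested miRNA rows, 33.9% were lower in Dicer1-ifKO with no overlap, and 2.01% were higher with no overlap, so a low row of this kind was common in these libraries.

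Under scaling over all features, the chromosome 8 counterparts lay close to 0. miR-27a-3p held 1947, 1945 and 2344 counts in WT and 2217, 2140 and 2007 in Dicer1-ifKO, or 43.6 ± 5.93 and 45.4 ± 7.01 CPM (SD, n = 3 each). Its log2 change was 0.06 ± 0.17 (SE, edgeR adjusted p = 0.99). miR-23a-3p held 1394, 1463 and 1576 counts in WT and 1409, 1594 and 1492 in Dicer1-ifKO, or 31.0 ± 2.75 and 31.9 ± 2.00 CPM (SD, n = 3 each). Its log2 change was 0.04 ± 0.15 (SE, edgeR adjusted p = 0.99). In both rows the groups overlapped, and both changes were slightly below 0 when WT replicate 1 or Dicer1-ifKO replicate 1 was left out. When TMM factors came from miRNA rows only, the log2 changes were 0.30 for miR-27a-3p and 0.28 for miR-23a-3p, and neither passed.

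miR-24-3p, the arm made by both clusters, varied widely among the Dicer1-ifKO pools. Its rows summed to 2444, 2503 and 2882 counts in the WT libraries and to 2460, 1824 and 1841 in the Dicer1-ifKO libraries. Dicer1-ifKO replicate 1 lay within the range of WT in CPM at both places, and replicates 2 and 3 lay below it. At the chromosome 8 place the mean of WT was 27.4 ± 3.25 CPM and that of Dicer1-ifKO 21.6 ± 6.45 CPM (SD, 3 pools per genotype; log2 -0.35 ± 0.20 SE, edgeR adjusted p = 0.80). The chromosome 13 row had a log2 change of -0.27 ± 0.21 (SE, edgeR adjusted p = 0.91), and the joined row of both places one of -0.31. At the chromosome 8 place, the log2 change was -0.62 when Dicer1-ifKO replicate 1 was left out and -0.18 and -0.20 when Dicer1-ifKO replicate 2 or WT replicate 3 was, and none of these passed (edgeR).

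The 5p arms were scarce, except that of Mir24-2. miR-24-2-5p held 206, 212 and 240 counts in WT and 238, 273 and 235 in Dicer1-ifKO, with a log2 change of 0.20 ± 0.17 (SE, edgeR adjusted p = 0.93), and its groups overlapped. miR-27b-5p held 119, 133 and 187 counts in WT and 131, 109 and 104 in Dicer1-ifKO, with a log2 change of -0.32 ± 0.23 (SE, edgeR adjusted p = 0.89), and these overlapped too. Its log2 change was -0.54 when Dicer1-ifKO replicate 1 was left out and -0.035 when WT replicate 3 was. miR-24-1-5p held only 25 to 36 counts per library in WT and 18 to 24 in Dicer1-ifKO. Its log2 change of -0.59 ± 0.25 (SE, edgeR adjusted p = 0.54) rests on these few reads, and the groups did not overlap. The miR-3074-1-3p row, whose reads cannot be told apart from these, did overlap. There WT replicate 2 stood at 0.522 CPM and Dicer1-ifKO replicate 1 at 0.530 CPM. miR-27a-5p held 1 to 6 counts per library. miR-23b-5p held 3 counts in all 6 libraries together. miR-23a-5p had 0 counts in each library, which allows up to 3 counts per library, so its 3p arm was at least 465-fold higher in WT replicate 1, the library with the fewest miR-23a-3p reads. Such limits cover counting error only.

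**Figure D2:**
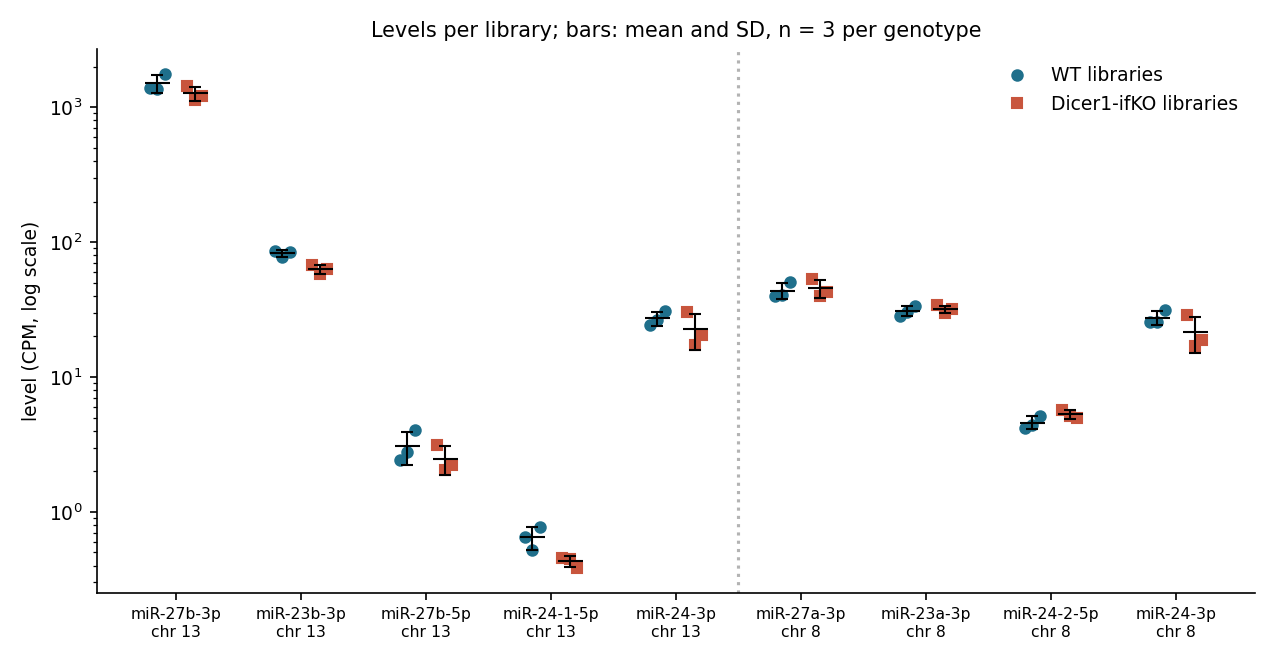
Level of each tested miR-23, miR-27 and miR-24 row in every library, in CPM on a log axis, with WT as circles and Dicer1-ifKO as squares, and bars for the mean and SD (n = 3 per genotype). The chromosome 13 rows stand left of the dotted line, and only miR-23b-3p and miR-24-1-5p have groups that do not overlap.

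No member passed the test for a genotype difference. Of the 13 tested rows, 0 were called in either direction at an adjusted p of 0.05 (edgeR, adjusted after Benjamini and Hochberg across 6539 features). Of all tested features 0.795% were called lower and 0.0153% higher, and of the tested miRNA rows 6.59% lower and 0% higher. By edgeR before adjustment (p of 0.05), 2 members were lower, miR-23b-3p and miR-24-1-5p, where 31.1% of tested miRNA rows were lower, and 0 members were higher, where 2.01% were. For miR-24-1-5p this hangs on a few reads, with an unadjusted edgeR p of 0.034. It was 0.0501 for the miR-3074-1-3p row of that place and 0.0504 when rows of both strands were joined. The tally of 2 lower and 0 higher also depends on the scaling and on the rows fitted. With TMM factors from miRNA rows and all features kept, the unadjusted edgeR p was 0.018 for miR-24-2-5p. It was 0.067 for miR-27a-3p, 0.083 for miR-23a-3p, 0.35 for miR-23b-3p and 0.22 for miR-24-1-5p. In the edgeR fit of miRNA rows alone, the unadjusted p was 0.005 for miR-24-2-5p, 0.014 for miR-27a-3p and 0.017 for miR-23a-3p, all higher. It was 0.22 for miR-23b-3p and 0.17 for miR-24-1-5p there, and none passed after adjustment. No share over all miRNA rows was drawn up for these fits. DESeq2 also called 0 members. Of the 9 rows without miR-3074, 6 lay below 0 and 3 above, with a median of -0.27, beside a median of -0.24 and 75.5% below 0 over all tested miRNA rows. The 6 include both miR-24-3p rows, which are not separate measurements, and the median is the value of the chromosome 13 one. The 3 above 0 were miR-23a-3p, miR-27a-3p and miR-24-2-5p, the arms that belong to chromosome 8 alone. The tested arms that belong to chromosome 13 alone, miR-23b-3p, miR-27b-3p, miR-27b-5p and miR-24-1-5p, all lay below 0. When TMM factors came from miRNA rows only, the median of the miRNA rows was 0.0014 and the log2 changes were 0.28 for miR-23a-3p, 0.30 for miR-27a-3p and 0.44 for miR-24-2-5p. Under that scaling they were -0.15 for miR-23b-3p and -0.0079 for miR-27b-3p. In bulk tissue, fewer cells of a type and less RNA per cell cannot be told apart.

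**Figure D3:**
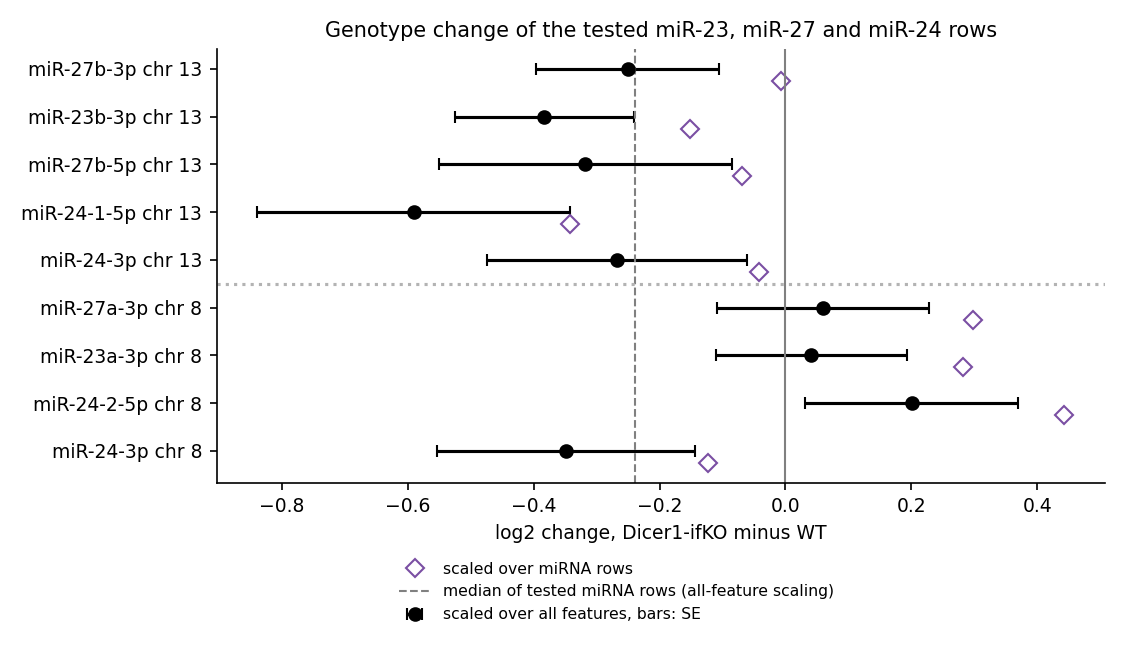
Log2 change of Dicer1-ifKO minus WT for the 9 tested rows of miR-23, miR-27 and miR-24, with filled points and SE bars for scaling over all features and open diamonds for scaling over miRNA rows. Under both scalings the miR-23a-3p, miR-27a-3p and miR-24-2-5p points of chromosome 8 lie right of those of chromosome 13.

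The clusters were then compared within each library, which needs no scaling. The chromosome 13 member held more counts than its chromosome 8 counterpart for miR-27 and miR-23, and fewer for the miR-24 5p arm. miR-27b-3p was 31.1-fold miR-27a-3p and miR-23b-3p was 2.30-fold miR-23a-3p, as geometric means over 6 libraries, and each pair has 21 nt in both rows. Both were higher in 6 of 6 libraries. miR-24-1-5p was 0.11-fold miR-24-2-5p and lower in 6 of 6 libraries, with lengths of 23 and 22 nt. Each of these 3 differences gave a two-sided exact sign-flip permutation p of 0.031 (n = 6, adjusted p = 0.031 over 3 ratios), the smallest that 6 libraries can give. The 3 ratios thus do not order the clusters in one way. The order within a cluster differed as well. miR-27b-3p was 16.3-fold to 21.3-fold miR-23b-3p, while miR-27a-3p was 1.33-fold to 1.57-fold miR-23a-3p. Adapter ligation and mapping can differ between such sequences, and their part in these ratios was not tested.

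In all 3 ratios the Dicer1-ifKO libraries lay below the WT libraries. The ratio of miR-23b-3p to miR-23a-3p was 3.01, 2.52 and 2.49 in the WT libraries, in replicate order, and 2.00, 1.95 and 2.00 in the Dicer1-ifKO libraries. On the log2 scale these were 1.41 ± 0.15 and 0.99 ± 0.021 (SD, n = 3 each), a difference of -0.43. The Dicer1-ifKO pools were nearly alike, and WT replicate 1 was the highest.

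The ratio of miR-27b-3p to miR-27a-3p was 35.11, 33.49 and 35.04 in WT and 27.03, 28.28 and 28.62 in Dicer1-ifKO. The log2 means were 5.11 ± 0.039 and 4.81 ± 0.044 (SD, n = 3 each), a difference of -0.30, several times the spread between pools. The GC content of these arms is 47.6% for miR-27b-3p and 52.4% for miR-27a-3p, and its part in the ratio was not tested. The ratio of miR-24-1-5p to miR-24-2-5p was 0.16, 0.12 and 0.15 in WT and 0.082, 0.090 and 0.079 in Dicer1-ifKO, a log2 difference of -0.77 that rests on 18 to 36 reads per library in the rarer arm.

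For each of the 3 genotype differences the exact permutation test was two-sided with p = 0.1 (adjusted p = 0.1 over 3 ratios), the smallest that this test can give for 3 against 3 libraries, so it cannot reach the threshold of 0.05. No model-based test of these ratios was run. Non-overlapping ratios were common: of the ratios of all 148780 pairs of tested miRNA rows, 32.7% did not overlap between the genotypes, and of the 76636 pairs with a mean of at least 50 counts in both rows, 40.1% did not.

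**Figure D4:**
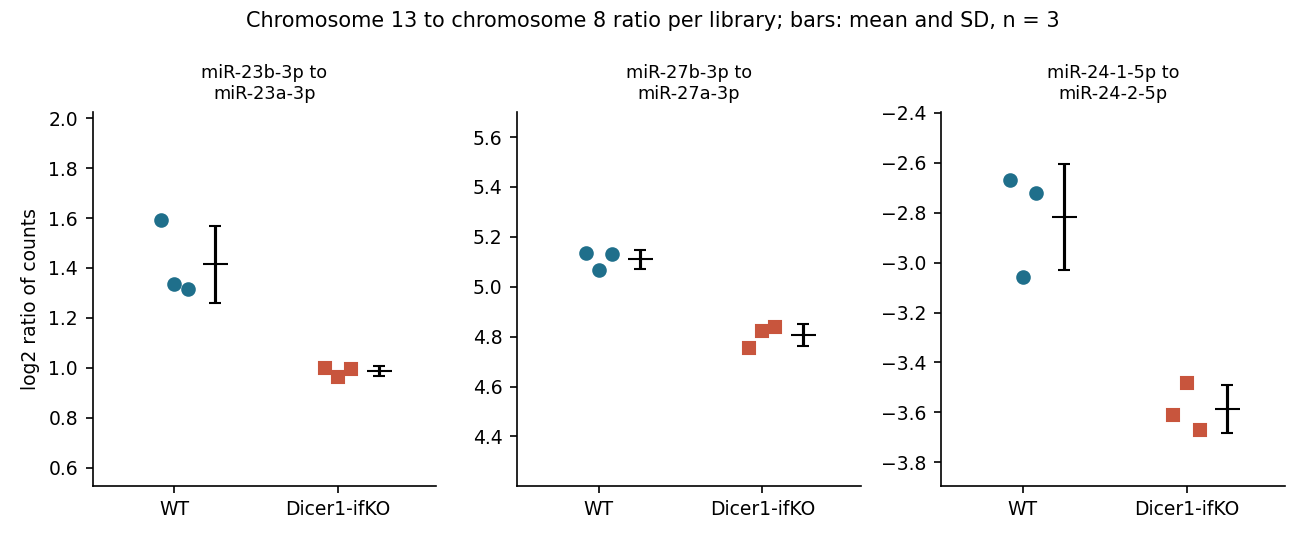
Log2 ratio of counts of the chromosome 13 to the chromosome 8 member in each library, with bars for the mean and SD (n = 3 per genotype). Each panel spans 1.5 log2 units, and in each of the 3 panels the Dicer1-ifKO squares lie below the WT circles.

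Both arms of a hairpin come from the same cut by Dicer. The 3p row held more counts in each of the 3 pairs of arm rows that both had a mean of at least 10. As geometric means, miR-27b-3p was 507-fold miR-27b-5p, and the miR-24-3p rows were 45.7-fold miR-24-1-5p and 4.86-fold miR-24-2-5p. The 3p row was higher in 6 of 6 libraries in all 3 (two-sided exact sign-flip permutation p = 0.031, adjusted p = 0.031 over 3 ratios). The miR-24 values are bound to the even split of miR-24-3p, so the 3p counts of each miR-24 hairpin are not known. With both places summed, miR-24-3p was 8.85-fold the miR-24 5p arms. miR-27a showed the same order, with 12600 counts of the 3p and 17 of the 5p arm over all libraries.

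The ratio of miR-24-3p, as split in the deposited counts, to miR-24-2-5p lay lower in all 3 Dicer1-ifKO libraries than in any WT library. It is not the arm ratio of Mir24-2 alone, because miR-24-3p cannot be assigned to a place. For Mir27b the groups overlapped. miR-24-3p to miR-24-2-5p stood at 6.05, 5.78 and 6.03 in the WT libraries and at 5.04, 3.30 and 3.76 in the Dicer1-ifKO libraries, in replicate order. The WT pools were nearly alike, and the Dicer1-ifKO pools were spread below them. The log2 difference was -0.59 (two-sided exact permutation p = 0.1, adjusted p = 0.3 over 3 ratios). With both places summed, which avoids the split of miR-24-3p and was added after the data were seen, the ratio of 3p to 5p was 10.2, 10.5 and 10.4 in WT and 9.56, 6.13 and 7.26 in Dicer1-ifKO, a log2 difference of -0.47 (exact permutation p = 0.1). Of the pairs of tested miRNA rows with a mean of at least 50 counts, as these rows have, 40.1% did not overlap.

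The ratio of miR-27b-3p to miR-27b-5p overlapped, at 438 to 572 in WT and 456 to 553 in Dicer1-ifKO, with a log2 difference of 0.06 (exact permutation p = 0.8, adjusted p = 0.8). The sign of that difference turned without WT replicate 3, to -0.031. The ratio of miR-24-3p to miR-24-1-5p also overlapped, with a log2 difference of 0.27 (exact permutation p = 0.4, adjusted p = 0.6). That difference was 0.084 when Dicer1-ifKO replicate 1 was left out, and 0.47 with no overlap when Dicer1-ifKO replicate 2 was. Whether the ratios of miR-24-3p to miR-24-2-5p and of miR-27b-3p to miR-27b-5p respond differently was not tested.

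**Figure D5:**
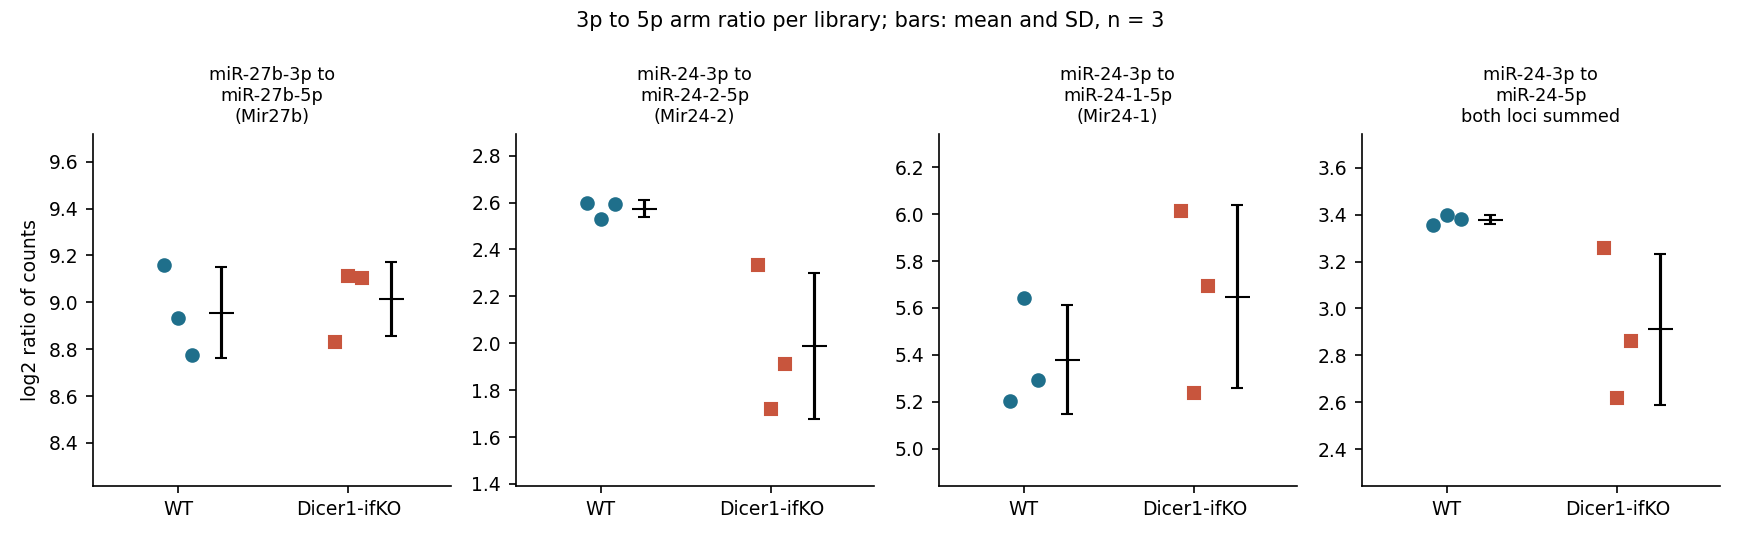
Log2 ratio of 3p to 5p counts in each library for Mir27b, Mir24-2 and Mir24-1 and for miR-24 with both places summed, with bars for the mean and SD (n = 3 per genotype), each panel spanning 1.5 log2 units. The groups are apart for Mir24-2 and the summed miR-24 and overlap for Mir27b and Mir24-1. In the Mir24-2 and Mir24-1 panels, miR-24-3p counts follow the even split of the deposited rows.

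The rows most like miR-27b-3p, miR-23b-3p and miR-24-3p in their pattern over the 6 libraries were not from these clusters. Likeness was measured as the root mean square difference of log2 CPM, each row centred on its own mean, over the tested miRNA rows. Nearest to miR-27b-3p were miR-127-5p (0.020), miR-25-3p (0.021) and miR-411-5p (0.027), against a median of 0.24 over 545 rows, while miR-23b-3p stood at 0.13, at place 81 in that order. Nearest to miR-23b-3p were miR-652-3p (0.041), miR-487b-3p (0.049) and miR-345-5p (0.059). Nearest to miR-24-3p, with its rows summed, were miR-344-3p (0.071), miR-376a-3p (0.092) and miR-29c-5p (0.10). miR-23a-3p was at place 227 in the order from miR-23b-3p, its paralog, and miR-27b-3p at place 47. In the order of 542 rows from miR-24-3p, miR-27b-5p was at place 21 and miR-27b-3p at place 28. The other tested miR-23, miR-27 and miR-24 rows stood at places 107 to 354 from miR-23b-3p and 110 to 314 from miR-24-3p.

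Markers of the cell types in the tissue are given for reference, as lists drawn up with earlier results known. In the neuron-enriched list, 3 of 30 tested rows fell and 0 rose (edgeR, with 6.59% of tested miRNA rows called lower), and the median was -0.41. The 30 rows hold 22 distinct names. The 3 were both miR-129-5p rows and miR-212-3p, named after their values were seen. The miR-129-5p rows, on chromosomes 2 and 6, carry a single mature name and are not counted here as distinct miRNAs. Its summed level ran from 2658 to 3307 CPM over the WT libraries and from 2050 to 2574 CPM over the Dicer1-ifKO libraries, with no overlap, as for miR-23b-3p. Its leading members miR-128-3p and miR-132-3p had log2 changes of -0.43 and -0.37 and did not pass. In the astrocyte-enriched list 0 of 15 rows were called, with a median of -0.09 and a summed level of 8143 to 10040 CPM over WT and 6671 to 7559 CPM over Dicer1-ifKO, also with no overlap. It was led by miR-26a-5p (-0.42) and miR-29a-3p (-0.11). The 15 rows hold 13 distinct names, and each row adds to the sum. The miR-26a-5p row on chromosome 9 had a WT mean of 3486 CPM and a Dicer1-ifKO mean of 2604 CPM. This row weighs heavily in the sum, so the gap between the sums does not describe the list as a whole. No share without overlap was drawn up for summed levels, and of single tested miRNA rows 33.9% were lower with no overlap.

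The remaining lists had 0 rows called and overlapping levels. The vessel and smooth muscle list (7 rows, led by miR-143-3p and miR-126a-5p) had a median of 0.24 and summed to 364 to 598 CPM over WT and 464 to 625 CPM over Dicer1-ifKO. Its miR-143 is also on the astrocyte list. The oligodendrocyte list (6 rows, led by miR-338-3p and miR-219a-2-3p) had a median of 0.11, with 218 to 340 CPM over WT and 257 to 349 CPM over Dicer1-ifKO. For microglia and leukocytes (3 rows, led by miR-150-5p and miR-342-3p) the median was -0.18, with 178 to 217 CPM and 205 to 225 CPM. For erythrocytes (3 rows, led by miR-451a and miR-144-5p) it was 0.07, with 8.92 to 12.7 CPM and 9.06 to 11.0 CPM. The listed names miR-142a and miR-486a matched no counted row. The part of cell type makeup in the cluster ratios was not tested.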

How the data were processed

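Small RNA libraries from pooled hippocampal RNA were made with the Illumina TruSeq small RNA protocol, per the labels' protocols. The series text gives more mice per genotype than the pools hold. Each deposited file holds raw read counts per feature, used as deposited, and a normalized signal. The median ratio of signal to count over high-count rows, 0.891 to 1.14 per library, was taken as the authors' constant. Whether 1 constant holds for all rows of a library was not tested. Tools listed in the submitters' processing notes, with no role, are BWA, CASAVA 1.8.2, DESeq2 and SAMtools 0.1.18, and the build listed is GRCm38. How reads were counted, with which strand setting and with what treatment of several matches, is not given in the sources used here.

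Rows of 1 gene with identical counts in all libraries were counted once. The fit of all features used edgeR 4.0.16 in R 4.3.3 (filterByExpr with a minimum count of 10, TMM, robust glmQLFit, glmQLFTest, Benjamini-Hochberg over 6539 features), with DESeq2 1.42.0 as an alternative, and was tested on simulated data. SEs were derived from the F statistic. Ratios used raw counts plus 0.5. Over miRNA rows, replicates differed beyond counting noise. Named were all member rows, the 3 nearest rows to the 3 most abundant members, and the 2 most abundant tested miRNAs of each marker list. The members and lists were chosen with earlier results of these data known.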

Additional observations from a re-analysis of the deposited data

How the results depend on the processing

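Across 16 other settings (other scalings, DESeq2, other count filters, the miRNA rows fitted alone, joined rows, the authors' constants as an addition after the data were seen, the replicate block, and each library left out), 0 member rows were called lower or higher. The smallest adjusted p was 0.053, for miR-24-2-5p in the fit of miRNA rows alone. With the replicate block the number called was 0, and the log2 changes were -0.25 for miR-27b-3p and -0.38 for miR-23b-3p. Same-numbered libraries deviated together with correlations of -0.18, 0.075 and -0.16, so the numbers show no pairing.

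Leaving out 1 library at a time, the log2 change ran from -0.015 to 0.15 for miR-23a-3p and from -0.079 to 0.22 for miR-27a-3p, the only rows that changed sign. It ran from -0.36 to -0.078 for miR-27b-3p, from -0.44 to -0.31 for miR-23b-3p and from -0.54 to -0.035 for miR-27b-5p. For miR-24-1-5p it ran from -0.71 to -0.41, and for miR-24-2-5p from 0.13 to 0.33. The genotype difference of the miR-27b arm ratio ran from -0.031 to 0.16, and that of miR-24-3p to miR-24-1-5p from 0.084 to 0.47. That of miR-24-3p to miR-24-2-5p ran from -0.76 to -0.45, and that of miR-24 with both places summed from -0.64 to -0.32. The genotype differences of the cluster ratios ran from -0.48 to -0.34 for miR-23, from -0.33 to -0.28 for miR-27 and from -0.89 to -0.70 for the miR-24 5p arms. The level differences kept their direction. Their log2 means ran from 1.12 to 1.248 for miR-23b-3p to miR-23a-3p, from 4.92 to 4.998 for miR-27b-3p to miR-27a-3p, and from -3.31 to -3.11 for miR-24-1-5p to miR-24-2-5p. For the arms they ran from 8.95 to 9.03 for miR-27b, from 2.22 to 2.39 for miR-24-3p to miR-24-2-5p and from 5.41 to 5.58 for miR-24-3p to miR-24-1-5p. Their exact sign-flip p was then 0.0625, because 5 libraries cannot give a smaller one. Adding 0 or 5 counts in place of 0.5 turned no ratio. The 5p arms of miR-23a, miR-23b and miR-27a were too shallow for a tested ratio.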
